A study of Saccharomyces cerevisiae with 12 samples.

Results

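The autophagy-related (*ATG*) genes of *Saccharomyces cerevisiae* were followed in WT and *sus1*Δ cells with and without Congo red (CR), a chitin-binding dye that interferes with the building of the cell wall. They were taken by name, as every gene whose symbol in the annotation of the array is ATG followed by a number. This rule was chosen with earlier results of these data known, and 34 of the 5449 genes measured met it. Each of the 34 has 1 probe set. Sus1 is a small protein shared by the SAGA coactivator and by the TREX-2 mRNA export complex, and the study asked how its loss changes the transcriptional response to cell wall stress.

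In autophagy a double membrane closes around cytoplasm or a chosen cargo and delivers it to the vacuole, where hydrolases break it down. The Atg1 kinase complex starts the process, Atg9 vesicles and a phosphatidylinositol 3-kinase (PI3-kinase) complex build the membrane, and 2 ubiquitin-like proteins, Atg8 and Atg12, are conjugated to lipid and protein to extend it. In yeast the same core machinery also serves the cytoplasm-to-vacuole targeting (Cvt) pathway, which runs in growing cells and carries enzymes such as Ape1 and Ams1 to the vacuole. By these roles the 34 genes were taken as 14 core genes, 3 genes of the scaffold for bulk autophagy, 12 genes of selective autophagy and the Cvt pathway, 2 genes of vacuolar breakdown and export, and 3 others (*ATG26*, *ATG38* and *ATG41*). *ATG38* encodes a subunit of the PI3-kinase complex but was counted with the others, so the core counts leave it out.

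The 4 groups had 3 arrays each, and all cells were grown in rich medium (YPD). They were *sus1*Δ cells treated with CR at 30 μg/mL, untreated *sus1*Δ cells, WT cells with the same dose of CR, and untreated WT cells. WT was the haploid laboratory strain BY4741, and *sus1*Δ was the same strain with *SUS1* replaced by the *KanMX4* marker. Both strains therefore carry the deletions of BY4741 in *HIS3*, *LEU2*, *MET17* and *URA3*. The length of the treatment is 3 h in the sample titles but 2 h in the series design, a conflict that was not settled. How many independent deletion clones were used is not given in the sources used here. Each culture was divided into a treated and an untreated part, so arrays of the same strain with the same number came from the same culture.

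All values are log2 signals from RMA, a method that corrects background, normalizes the arrays to each other and turns the probes of each set into a single value. Which arrays were normalized together is not given in the sources used here. An increase of 1 is a doubling of the signal. Signals of whole cultures cannot tell more transcript in every cell from more cells that express a gene. The *SUS1* probe set read 2.55 to 3.34 on the 6 *sus1*Δ arrays and 7.90 to 8.66 on the 6 WT arrays, as the labels require. *LEU2*, *MET17* and *URA3* stayed at or under 4.44 on every array, whereas *HIS3*, of which BY4741 lacks only a part, read 9.48 to 10.17. The mating type receptor gene *STE2* of MATa cells was bright on all arrays (11.29 to 12.35). So was the MATa gene *MFA1*, at 11.62 to 12.07 on *sus1*Δ and 11.14 to 13.10 on WT arrays. The MATα genes *MF(ALPHA)1* and *MF(ALPHA)2* stayed at or under 5.76 on every array. The MATα receptor gene *STE3* read higher on *sus1*Δ arrays (6.69 to 6.98) than on WT arrays (5.17 to 5.76). The source of this difference was not tested. The array medians lay between 9.08 and 9.16, but the dimmest probe sets read higher on *sus1*Δ arrays, where the 5th percentile was 5.36 to 5.49, than on WT arrays, where it was 4.53 to 4.80. This matters for the *ATG* genes, since 20 of the 34 had a mean signal under the 25th percentile of all probe sets (8.11). Whether the offset of the dim probe sets arose in the normalization was not tested. A step of processing that differed between the strains could not be told apart from the strain. The median SD of an *ATG* gene among the 3 arrays of a group was 0.109 in CR-treated and 0.108 in untreated *sus1*Δ cells, and 0.139 in CR-treated and 0.185 in untreated WT cells. Both arrays of WT culture 3 stood apart from the other WT arrays. Without them CR raised 11 *ATG* genes in WT and 1 in *sus1*Δ cells, and 11 were higher and 2 lower in untreated *sus1*Δ cells, 4 higher and 3 lower in CR-treated ones; the counts that follow rest on all 12 arrays. Precision is limited throughout by the 3 arrays per group.

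In WT cells CR raised the transcripts of 12 of the 34 *ATG* genes and lowered none (adjusted p under 0.05 from limma, adjusted over all 5449 genes). Across all genes, 9.4% rose and 9.01% fell in this comparison. The log2 change was above 0 for 28 of the 34 genes, against 45.8% of all genes, and its median was 0.25 for the *ATG* genes and -0.02 for all genes. The changes were small. Only *ATG8* reached a ratio of 2, as did 1.58% of all genes. For 14 of the 34 genes every CR-treated array was above every untreated one, which held for 12.8% of all genes, and no *ATG* gene showed the reverse, which held for 14.7%. With the culture as a fixed block, 17 genes rose, among them all 12 and also *ATG1*, *ATG2*, *ATG4*, *ATG5* and *ATG39* (14.9% of all genes rose in that fit). With the culture as a random block 15 rose, again against 14.9% of all genes, and *ATG4* (adjusted p = 0.0504) and *ATG39* (adjusted p = 0.146) did not pass.

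*ATG8* (YBL078C), which encodes the ubiquitin-like protein that coats the growing membrane, changed most. It read 10.29, 10.25 and 10.45 in CR-treated WT cells, against 9.15, 9.13 and 8.85 in untreated WT cells. The treated arrays lay at least 1 unit above the untreated ones, and the log2 change was 1.29 (standard error, SE, 0.10, 2.44-fold, adjusted p = 7.48e-06). The other core genes that rose in WT cells were *ATG9* (0.46, SE 0.07), which encodes the membrane protein of the Atg9 vesicles, *ATG7* (0.40, SE 0.10), which encodes the E1 enzyme of both conjugation systems, and *ATG3* (0.30, SE 0.09), which encodes the E2 enzyme of Atg8. *ATG7* (YHR171W) read 8.22, 8.04 and 7.90 in CR-treated WT cells and 7.71, 7.77 and 7.49 in untreated WT cells (adjusted p = 0.0188). The groups did not overlap, although the gap between them was narrow.

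**Figure D1:**
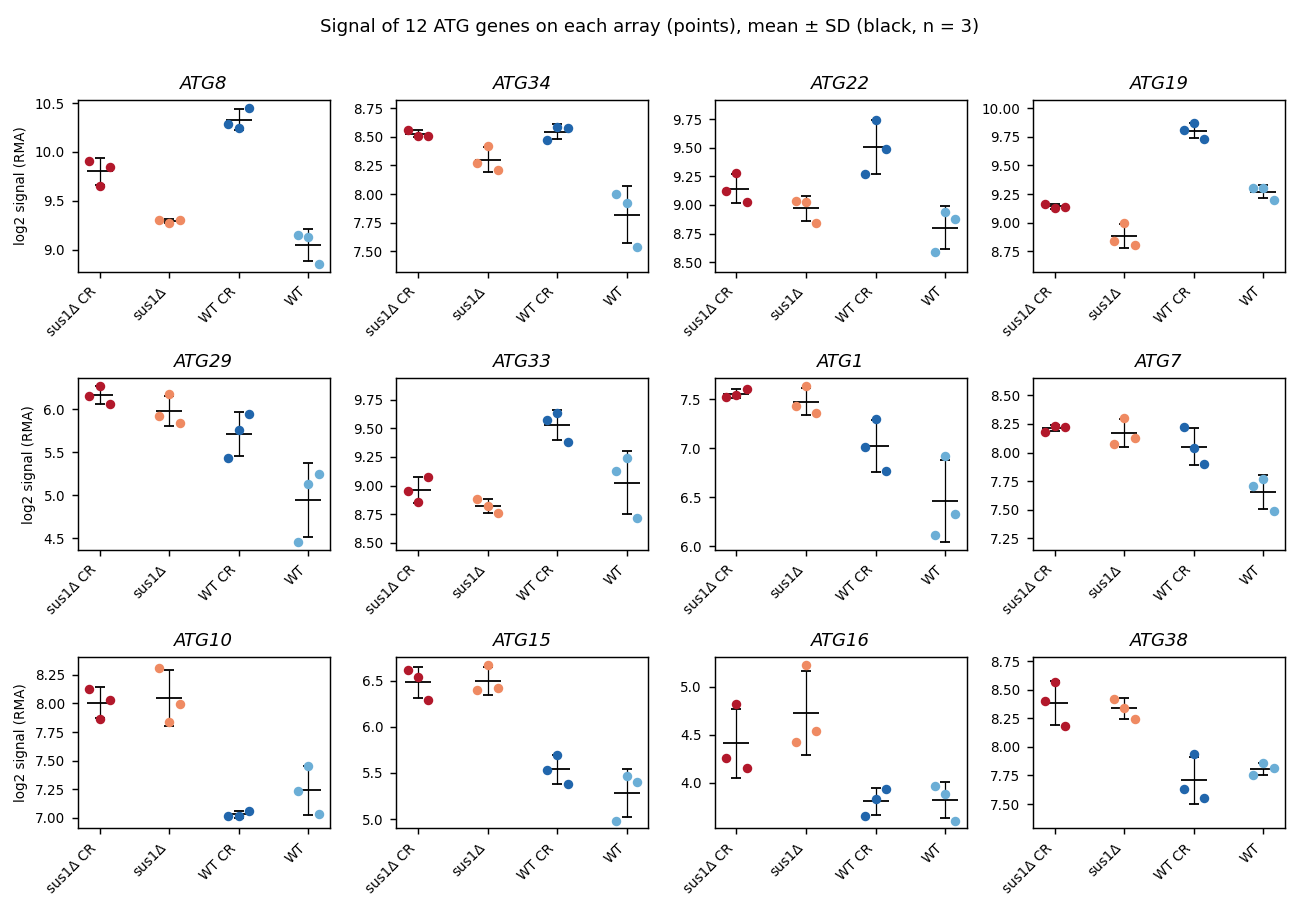
Log2 signal of the 12 *ATG* genes with a called change of at least 0.5 in some comparison. Each point is an array, the groups run from *sus1*Δ with CR at the left to untreated WT at the right, and the black bars give the mean and SD of each group. *ATG8* is highest on the 3 CR-treated WT arrays, whereas *ATG10*, *ATG15* and *ATG38* part by strain and not by CR.

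Of the 12 genes of selective autophagy and the Cvt pathway, 6 rose in WT cells, with a median log2 change of 0.34 over all 12. Of the 14 core genes 4 rose, with a median of 0.28. Whether the classes differ was not tested. *ATG34* (YOL083W), which encodes a receptor that delivers Ams1 during starvation, read 8.48, 8.59 and 8.57 in CR-treated WT cells, against 8.00, 7.92 and 7.54 in untreated WT cells. Its log2 change was 0.73 (SE 0.11, adjusted p = 0.00101). *ATG19* (YOL082W), which encodes the receptor of the Cvt pathway, read 9.81, 9.87 and 9.73 with CR and 9.31, 9.30 and 9.20 without it. These arrays agreed closely within each group, and the log2 change was 0.53 (SE 0.07, adjusted p = 0.000565). *ATG33* (YLR356W), which encodes a mitochondrial protein needed for mitophagy, rose by 0.51 (SE 0.13, adjusted p = 0.0164), with 9.57, 9.64 and 9.38 in CR-treated and 9.12, 9.24 and 8.71 in untreated WT cells. Without the second CR-treated array its adjusted p was 0.0508. The other 3 were *ATG23* (0.38), which acts in the transport of Atg9, *ATG40* (0.35), which encodes a receptor for the endoplasmic reticulum, and the sorting nexin gene *ATG20* (0.33).

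Beyond these classes *ATG22* and *ATG29* rose in WT cells. *ATG22* (YCL038C), which encodes a vacuolar protein that exports amino acids after breakdown, read 9.27, 9.75 and 9.49 with CR and 8.59, 8.94 and 8.88 without it (log2 change 0.70, SE 0.13, adjusted p = 0.00334). *ATG29* (YPL166W) belongs with Atg17 and Atg31 to the scaffold of bulk autophagy, and its annotated span overlaps that of *SET6*. It was dim and more variable, with 5.43, 5.76 and 5.95 in CR-treated WT cells and 4.45, 5.13 and 5.25 in untreated WT cells (log2 change 0.77, SE 0.19, adjusted p = 0.0175, and 0.0567 without the third CR-treated array). Its scaffold partners *ATG17* (0.00) and *ATG31* (0.12) did not pass the test. *ATG1* (YGL180W), the kinase gene, had a log2 change of 0.57 (SE 0.19, adjusted p = 0.0545), with 7.02, 7.30 and 6.77 in CR-treated and 6.12, 6.93 and 6.33 in untreated WT cells. The groups overlapped, but in each culture the treated part was higher, by 0.90, 0.37 and 0.44, and with the culture as a fixed block the adjusted p was 0.0058.

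In *sus1*Δ cells CR raised 1 of the 34 genes, *ATG8*, and lowered none, where 1.39% of all genes rose and 0.147% fell. At an unadjusted p under 0.05 from limma, 3 *ATG* genes were higher and none was lower, against 5.29% and 4.94% of all genes. The log2 change was above 0 for 26 of the 34 genes, against 40.6% of all genes, with a median of 0.08 for the *ATG* genes and -0.03 for all genes. The fit shared 1 variance per gene across the groups, although replicates varied less in *sus1*Δ cells. The median SD of all genes was 0.078 with CR and 0.071 without it, against 0.148 in each WT group. With only the groups compared, CR raised 5 *ATG* genes in WT and 3 in *sus1*Δ cells. The counts in the 2 strains are therefore not directly comparable. The values that follow are from the shared fit. *ATG8* read 9.90, 9.65 and 9.85 in CR-treated *sus1*Δ cells and 9.31, 9.27 and 9.30 in untreated *sus1*Δ cells. This was a log2 change of 0.51 (SE 0.10, 1.42-fold, adjusted p = 0.0241). The arrays did not overlap, yet the call was lost when any of the 6 arrays other than the second CR-treated one was left out (highest adjusted p = 0.133, without the first CR-treated one). *ATG19* read 9.16, 9.13 and 9.14 with CR and 8.84, 9.00 and 8.80 without it, a log2 change of 0.26 (adjusted p = 0.138) that passed the test with the culture as a random block, where 2 *ATG* genes and 2.83% of all genes rose. *ATG34* read 8.56, 8.51 and 8.51 with CR and 8.27, 8.42 and 8.21 without it (0.23, adjusted p = 0.526).

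**Figure D2:**
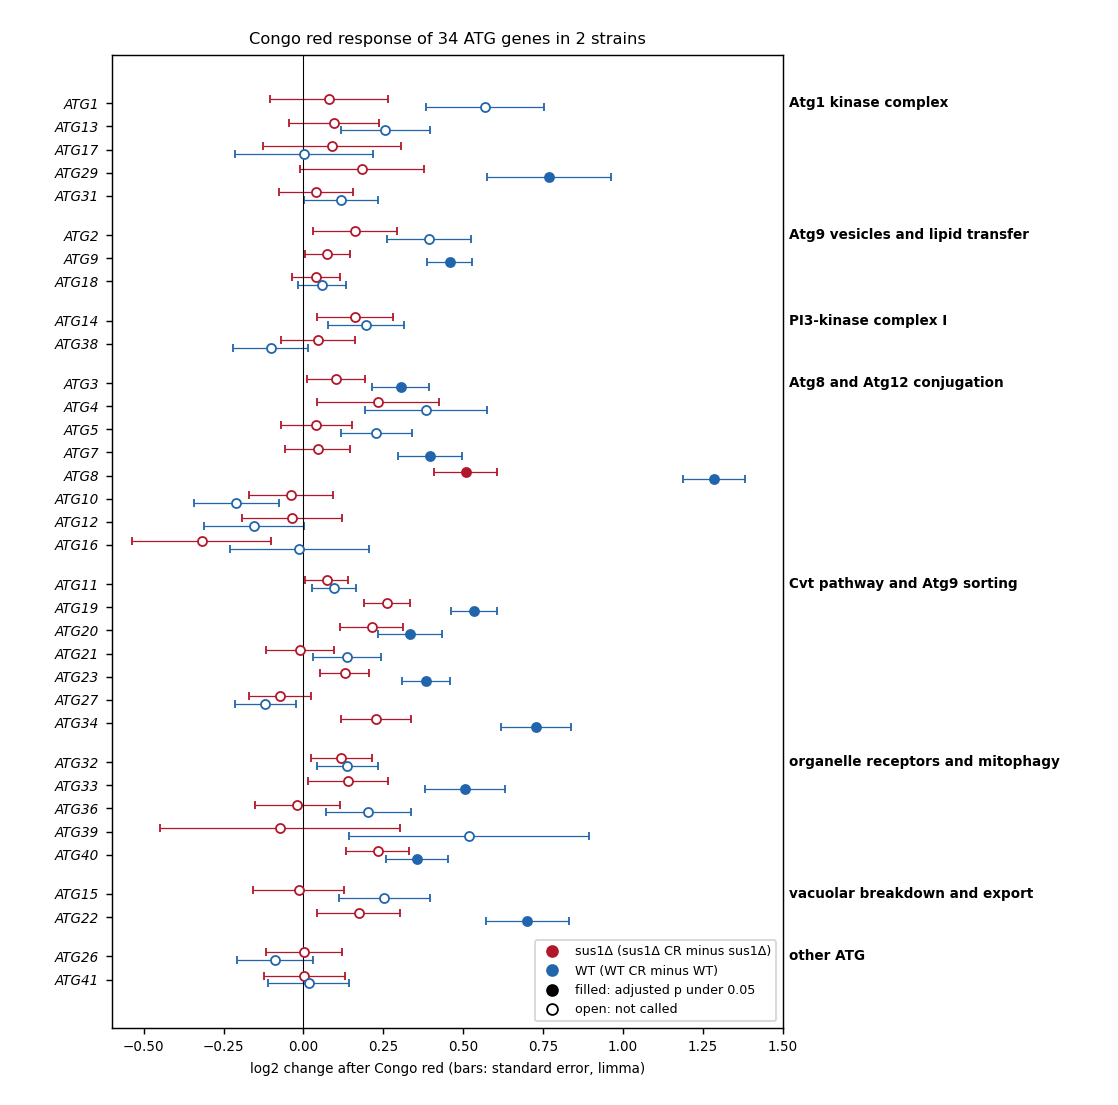
Log2 change after CR of all 34 *ATG* genes in *sus1*Δ and WT cells, grouped by role and filled where called, with bars of 1 standard error (SE) from limma. Most points of *sus1*Δ cells lie between 0 and those of WT cells, and *ATG8* has the highest value in both strains.

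The test of the difference itself, the CR response of *sus1*Δ cells minus that of WT cells, called none of the 34 genes, where 0.0734% of all genes were called lower and 0% higher. At an unadjusted p under 0.05 from limma, 7 *ATG* genes were lower and none was higher, against 5.23% and 3.4% of all genes. The difference was above 0 for 6 of the 34 genes, against 49.1% of all genes, and its median was -0.17. For *ATG8* it was -0.78 (SE 0.14, adjusted p = 0.101). Its response was 0.60, 0.38 and 0.55 in the 3 *sus1*Δ cultures and 1.14, 1.12 and 1.60 in the 3 WT cultures, so that all *sus1*Δ cultures stayed under all WT cultures. With the culture as a random block 2 genes passed, *ATG8* (adjusted p = 0.0159) and *ATG9*, where 1.1% of all genes were called lower. With the culture as a fixed block none did (*ATG8*, adjusted p = 0.0524), where 0.606% were called lower.

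Culture by culture, the responses of 15 of the 34 genes were smaller in every *sus1*Δ culture than in every WT culture, which held for 13% of all genes. No *ATG* gene showed the reverse, which held for 10.2% of all genes. The response was above 0 in all 3 *sus1*Δ cultures for 14 of the 34 genes, against 19% of all genes, and in all 3 WT cultures for 21, against 24.7% of all genes. The 12 genes called in WT cells were chosen by their WT response, so their values in *sus1*Δ cells are only a description. All 12 had a smaller response in *sus1*Δ cells, and 11 of them were above 0 in all 3 *sus1*Δ cultures. A change of smaller size in *sus1*Δ than in WT cells was common on the arrays. It held for 32 of the 34 genes and for 4036 of all 5449. Across the 34 genes the responses of the strains, which share no arrays, had a Pearson correlation of 0.72, and 28 genes had the same sign. Across all genes the correlation was 0.82 and 4055 of 5449 had the same sign, and genes are not independent replicates.

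Without CR, *sus1*Δ cells had higher signals than WT cells for 11 of the 34 genes and a lower signal for 1. Across all genes, 14.3% were higher and 7.08% lower. The median log2 difference was 0.14 for the *ATG* genes and 0.03 for all genes. *ATG15*, *ATG29* and *ATG1* reached a ratio of 2, as did 2.46% of all genes. This comparison and the CR response of WT cells share the untreated WT arrays, so they are not independent. Signal level moved with the result. Of the 11 higher genes, 9 were under the 25th percentile of signal, where 30.3% of all genes were called higher, against 9.24% of the brighter genes. The median difference of all genes was 0.50 in the dimmest decile and 0.17 in the next, and each of the 11 genes lay above the median of its own decile. The 11 genes were chosen by this same difference, so their place above the medians is only a description. Quantile normalization over the measured genes left 7 genes called higher, and so did leaving out the second untreated *sus1*Δ array. The part of the dim signals in the single calls was not tested.

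*ATG15* (YCR068W), which encodes the lipase that opens autophagic bodies in the vacuole, was among the genes that differed in both conditions. It read 6.39, 6.67 and 6.42 in untreated *sus1*Δ cells and 4.98, 5.47 and 5.40 in untreated WT cells, a log2 difference of 1.21 (SE 0.14, 2.32-fold, adjusted p = 0.000252). With CR it read 6.62, 6.53 and 6.29 in *sus1*Δ and 5.54, 5.69 and 5.38 in WT cells, so the strains were apart in both conditions. Quantile normalization lowered its difference to 0.52 (adjusted p = 0.00782) without CR and to 0.42 (adjusted p = 0.0144), against 0.94, with it. *ATG10* (YLL042C), which encodes the E2 enzyme of Atg12, behaved alike. It read 8.31, 7.84 and 7.99 in untreated *sus1*Δ cells and 7.24, 7.46 and 7.03 in untreated WT cells (log2 difference 0.81, adjusted p = 0.00197). With CR the values were 8.13, 7.86 and 8.03 in *sus1*Δ cells and 7.02, 7.01 and 7.06 in WT cells (0.98, adjusted p = 0.000477). *ATG38* (YLR211C), which encodes a subunit that links the parts of PI3-kinase complex I, also differed in both conditions. Its arrays read 8.42, 8.34 and 8.24 in untreated *sus1*Δ cells, against 7.75, 7.86 and 7.81 in untreated WT cells, and 8.40, 8.56 and 8.18 against 7.63, 7.94 and 7.55 with CR (0.53 and 0.68 on the log2 scale). None of these 3 genes changed with CR in either strain by the test.

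Without a block, *ATG1*, *ATG7* and *ATG29* were called higher in untreated *sus1*Δ cells but not in CR-treated ones. *ATG1* read 7.44, 7.64 and 7.36 in untreated *sus1*Δ cells, where the WT values were those given above, and the log2 difference was 1.02 (adjusted p = 0.00361), and 0.64 with quantile normalization. With CR it read 7.52, 7.54 and 7.61 in *sus1*Δ cells, and the difference was 0.53 (adjusted p = 0.0527, and 0.0435 with the culture as a random block). *ATG7* read 8.18, 8.24 and 8.22 in CR-treated and 8.08, 8.31 and 8.13 in untreated *sus1*Δ cells. Its difference was 0.51 (adjusted p = 0.00518) without CR and 0.16 (adjusted p = 0.26) with it. *ATG29* read 6.16, 6.27 and 6.06 in CR-treated and 5.92, 6.17 and 5.84 in untreated *sus1*Δ cells. Its difference was 1.03 (adjusted p = 0.0042) without CR, which quantile normalization lowered to 0.22 (adjusted p = 0.467), and 0.45 (adjusted p = 0.107) with it. The signals of *ATG1*, *ATG7* and *ATG29* in untreated *sus1*Δ cells lay above those of CR-treated WT cells in the group means of the deposited values, while the interaction called none of the 3. This order depended on the scaling. With quantile normalization the strain difference of *ATG29* was 0.22, whereas its CR change in WT cells was at least 0.62 in every alternative that kept all single arrays. For *ATG7* these values were 0.40 and 0.36 to 0.43.

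*ATG16* (YMR159C), whose product joins the Atg12 and Atg5 conjugate, had a mean signal in the dimmest decile of all genes. It read 4.42, 5.23 and 4.53 in untreated *sus1*Δ cells and 3.97, 3.88 and 3.60 in untreated WT cells (log2 difference 0.91, adjusted p = 0.0141). With CR it read 4.25, 4.82 and 4.15 in *sus1*Δ cells and 3.65, 3.83 and 3.93 in WT cells (0.61, adjusted p = 0.0586, and 0.0444 with the culture as a random block). Quantile normalization lowered the untreated difference to 0.40 (adjusted p = 0.157). All WT values of *ATG16* lay under the 5th percentile of the WT arrays (4.53 to 4.80). They were at the level of the deleted genes *LEU2* (3.84 to 4.44) and *MET17* (3.24 to 3.66) on WT arrays. Its *sus1*Δ values also lay under the 5th percentile of their arrays (5.36 to 5.49). The signal was thus not set apart from background, and its strain differences are not read as differences in transcript. The brighter genes among the 11 were *ATG34* (0.48, adjusted p = 0.0112) and *ATG40* (0.46, adjusted p = 0.00772). *ATG23* (0.29) and *ATG36* (0.48), which encodes the receptor for peroxisomes, complete the list, but quantile normalization lowered their differences to 0.067 (adjusted p = 0.503) for *ATG23* and 0.17 (adjusted p = 0.278) for *ATG36*.

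**Figure D3:**
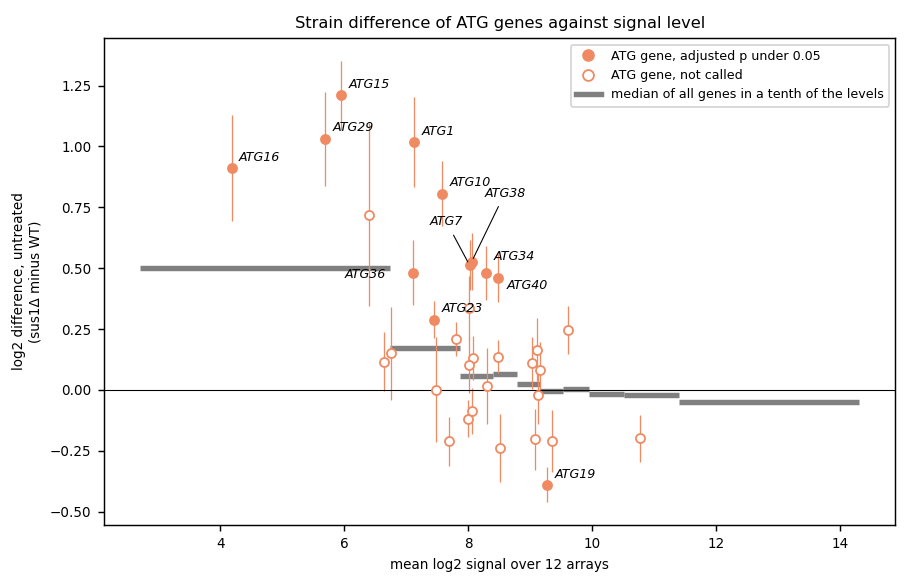
Log2 difference between untreated *sus1*Δ and WT cells against the mean log2 signal over the 12 arrays, for the 34 *ATG* genes, with bars of 1 standard error (SE) from limma. Horizontal bars give the median difference of all genes in each decile of signal, 0.50 in the dimmest. Filled points passed the test, and most lie at signals under 8.11.

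*ATG19* was the only member that was lower in untreated *sus1*Δ cells, with a log2 difference of -0.39 (SE 0.07, adjusted p = 0.0041). With CR the difference was -0.66 (SE 0.07, adjusted p = 0.000149). The 6 *sus1*Δ arrays, at 8.80 to 9.16, all lay under the 6 WT arrays, at 9.20 to 9.87. The gene next to it in the annotation, *ATG34*, was higher in untreated *sus1*Δ cells and did not differ by the test with CR (-0.02, adjusted p = 0.905).

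With CR, 4 *ATG* genes were higher in *sus1*Δ than in WT cells and 4 were lower, where 16.8% of all genes were higher and 10.9% lower. The higher ones were *ATG10*, *ATG15*, *ATG38* and *ATG40*. The lower ones were *ATG8* (-0.53, adjusted p = 0.00284), *ATG19*, *ATG20* (-0.33, adjusted p = 0.0285) and *ATG33* (-0.57, adjusted p = 0.00695), and all 4 also rose with CR in WT cells, a comparison that shares the CR-treated WT arrays. *ATG33* read 8.95, 8.86 and 9.08 in CR-treated *sus1*Δ cells, under all 3 CR-treated WT arrays, and 8.88, 8.82 and 8.76 in untreated *sus1*Δ cells. Of the 12 genes of selective autophagy and the Cvt pathway 1 was higher and 3 were lower, and of the 14 core genes 1 was higher and 1 lower. The median difference of the 34 genes was 0.03, the same as that of all genes, and its sign turned under 5 alternative settings, among them quantile normalization (-0.11) and the omission of the third CR-treated WT array (-0.076). *ATG22* read 9.12, 9.28 and 9.03 in CR-treated and 9.04, 9.03 and 8.84 in untreated *sus1*Δ cells. Its difference from CR-treated WT cells was -0.36 (adjusted p = 0.0577, and 0.0394 with the culture as a random block). With that block 6 genes were higher and 6 lower, among them all 8 and also *ATG1*, *ATG13*, *ATG16* and *ATG22*, where 16.6% of all genes were higher and 11% lower.

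Without a block, no comparison called 16 of the 34 genes: *ATG2*, *ATG4*, *ATG5*, *ATG11*, *ATG12*, *ATG13*, *ATG14*, *ATG17*, *ATG18*, *ATG21*, *ATG26*, *ATG27*, *ATG31*, *ATG32*, *ATG39* and *ATG41*. They include 7 of the 14 core genes, among them the genes of the Atg5 and Atg12 conjugate and of the Atg4 protease that processes Atg8. With CR their log2 changes lay between -0.07 and 0.23 in *sus1*Δ cells, and in WT cells between -0.15 and 0.52. The differences of *sus1*Δ from WT cells ran over -0.40 to 0.14 with CR and over -0.24 to 0.72 without it. The highest values in WT cells with CR and between the untreated strains belonged to *ATG39*, which encodes a receptor for the nuclear envelope and had the largest SE of a log2 change (0.38), and its untreated WT arrays read 6.05, 6.77 and 4.98. The share of all genes that no comparison called was not counted, so the 16 genes have no reference value.

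The genes that work with the *ATG* genes were followed in 7 lists made from general knowledge. CR in WT cells raised 3 of 7 vacuolar hydrolase and transporter genes, 2 of 16 genes of the PI3-kinase, sorting nexins and Cvt trafficking, 2 of 14 genes of fusion with the vacuole, 4 of 23 nitrogen-regulated genes and 1 of 21 genes of TORC1 and other kinases that set autophagy, and lowered none of them. No gene of the 18 transcription regulators of *ATG* genes passed in either strain after CR. Of the 8 genes of cargo and its receptors 1 rose and 2 fell. In *sus1*Δ cells CR raised 1 trafficking gene and lowered 1 cargo gene, and no other listed gene passed. Over all genes 9.4% rose and 9.01% fell in WT cells, and 1.39% rose and 0.147% fell in *sus1*Δ cells. The interaction called none of these genes in the fit without a block. Between the strains, 5 of the 18 transcription regulators were higher in *sus1*Δ cells with CR and 3 without it, and none was lower. Of the 16 trafficking genes none was higher and 5 were lower in *sus1*Δ cells with CR, while 2 were higher and 1 lower without it. Of the 23 nitrogen-regulated genes 4 were higher and 3 lower with CR, and 6 and 2 without it. Of the 21 kinase genes 3 were higher and 3 lower with CR, and 1 was higher and none lower without it. Of the 14 fusion genes 2 were higher and 1 lower with CR, and 2 were higher and none lower without it. Of the 8 cargo genes 2 were higher and 3 lower with CR, and 1 was higher and 3 lower without it. Of the 7 hydrolase and transporter genes only 1 passed, which was lower with CR. Over all genes 16.8% were higher and 10.9% lower with CR, and 14.3% and 7.08% without it.

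The Cvt cargo genes *APE1* and *AMS1* changed in WT cells, in opposite directions. *APE1* (YKL103C), which encodes the aminopeptidase that the Cvt pathway delivers, fell to 8.53, 8.81 and 8.55 in CR-treated WT cells, against 10.25, 10.52 and 9.97 in untreated WT cells (log2 change -1.62, adjusted p = 1.97e-05). In *sus1*Δ cells it read 9.28, 9.42 and 9.17 with CR and 9.91, 10.18 and 9.88 without it (-0.70, adjusted p = 0.0288), a call that was lost when any 1 of these 6 arrays was left out. The interaction was 0.92 (adjusted p = 0.14, and 0.0227 with the culture as a fixed block). *AMS1* (YGL156W), which encodes the vacuolar mannosidase, read 9.00, 9.25 and 9.06 in CR-treated WT cells and 7.83, 8.05 and 7.45 in untreated WT cells (1.32, adjusted p = 0.000565). It read 8.82, 8.90 and 8.39 in CR-treated and 8.20, 8.52 and 8.02 in untreated *sus1*Δ cells (0.46, adjusted p = 0.406, and 0.0436 with the culture as a fixed block), and its interaction was -0.87 (adjusted p = 0.296, and 0.0394 with the culture as a fixed block).

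*PRB1* (YEL060C), which encodes the vacuolar proteinase B, read 10.52, 10.98 and 11.14 in CR-treated WT cells and 9.44, 10.04 and 9.50 in untreated WT cells (1.22, adjusted p = 0.000665). In *sus1*Δ cells it read 10.67, 10.48 and 10.62 with CR and 10.10, 10.13 and 10.01 without it (0.51, adjusted p = 0.278). *PEP4*, which encodes the proteinase that activates it, rose by 0.25 in WT cells (adjusted p = 0.046). *TRS65* (YGR166W), which encodes a subunit of the TRAPPII trafficking complex, rose in both strains. It read 9.49, 9.22 and 9.45 in CR-treated and 8.85, 8.76 and 8.84 in untreated *sus1*Δ cells (0.57, adjusted p = 0.0031), and 9.76, 9.80 and 9.95 in CR-treated and 8.77, 8.76 and 8.81 in untreated WT cells (1.05, adjusted p = 9.76e-06). *DAL4*, a nitrogen-regulated gene that encodes the allantoin permease, rose in WT cells (1.14, adjusted p = 0.00119). Its interaction was not called without a block, and had an adjusted p of 0.0479 with the culture as a fixed block and 0.0332 as a random block. In *sus1*Δ cells its change after CR was not called, also with the fixed block (adjusted p = 0.372). *DAL4* was called higher in untreated *sus1*Δ than in WT cells. That call was lost in 5 of the 6 fits that left out 1 array.

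**Figure D4:**
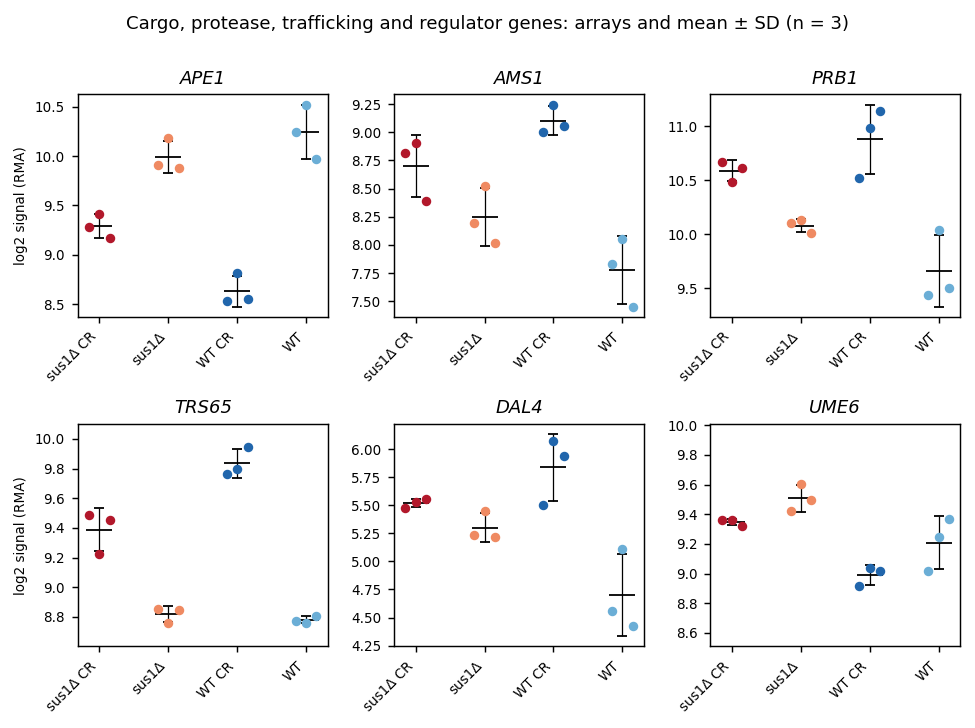
Log2 signal of genes that work with the *ATG* genes, with 1 point per array and black bars for the mean and SD, from *sus1*Δ with CR at the left to untreated WT at the right. *APE1* is lowest and *AMS1* highest in CR-treated WT cells.

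*VPS30*, which encodes a subunit shared by both PI3-kinase complexes, had a log2 change of -0.00 after CR in WT cells (adjusted p = 0.995), and the kinase gene *VPS34* one of 0.15 (adjusted p = 0.567). Without CR, *VPS34* was higher in *sus1*Δ than in WT cells (0.49, adjusted p = 0.049). *UME6*, which encodes a repressor of *ATG8*, did not pass the test after CR in WT cells (-0.22, adjusted p = 0.122). It was higher in *sus1*Δ than in WT cells without CR (0.30, adjusted p = 0.038) and with it (0.36, adjusted p = 0.014).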

How the data were processed

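The authors hybridized RNA to 12 GeneChip Yeast Genome 2.0 arrays and made the deposited log2 signals from the scans with RMA in the Expression Console, whose version is not given in the sources used here. No further normalization was applied. Of 5739 probe sets, 5498 are annotated to 1 gene and 241 have no entry. The brightest probe set stood for each of 47 genes with several, which left out 49. In R 4.3.3, limma 3.58.1 fitted 4 group means to all 12 arrays, and two-sided p-values were adjusted over 5449 genes by the Benjamini-Hochberg method and called under 0.05. The steps were run on simulated arrays with known changes and independent noise of 1 SD per gene. These had no culture effect, no difference in spread between the strains and no offset of dim signals. The simulation therefore does not check the fits under those features of the data.

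As a check of the pairing by culture, which the design and methods state, deviations from group means correlated at 0.247 to 0.716 in the 6 pairs from 1 culture and at -0.595 to -0.00134 in 12 pairs of a strain with other numbers. Deviations sum to 0 within a group, so these 2 ranges are tied to each other. Pairs across the strains correlated at -0.149 to 0.160 with other numbers and at -0.031 to 0.193 with the same number. Array values are given for *ATG8* and for *ATG* genes called in some comparison with a log2 change of at least 0.5. Listed partner genes were named if called with a change of at least 2-fold either way, or if on a short list of well-known ones. The members, lists and rule were chosen with earlier results of these data known. The alternatives changed the test, threshold, probe sets, dim filter, scaling, arrays in the fit, block, variance model and members, and each array was left out in turn. Comparisons of the study that need other strains or assays were not analysed here.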

Additional observations from a re-analysis of the deposited data

How the results depend on the processing

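Of 293 alternative values of the counts and medians of the *ATG* genes, 244 stayed close to the main value. Closeness was judged by a ratio limit for counts and by the spread between replicate arrays for medians. Many of the 244 were counts of 0 that stayed 0. The settings that averaged probe sets or used current symbols could not change the members or their signals. The count of genes raised by CR in WT cells (12) was 3 with the methods' t-test after Benjamini-Hochberg adjustment, 1 with that test unadjusted and a ratio of 2, 1 with limma and a ratio of 2, 6 of 14 members without dim probe sets and 5 with only the groups compared. That in *sus1*Δ cells (1) was 0, 0 and 0 under the first 3 of these settings, 3 with only the groups compared, 3 with array weights and 2 with the culture as a random block. The count higher in untreated *sus1*Δ cells (11) was 1, 1 and 3 under those first 3 settings, 2 without dim probe sets and 7 with quantile normalization, and the count lower (1) was 0, 0 and 0, and 2 with quantile normalization, without both arrays of WT culture 3, or with cyclic loess. The median there (0.14) was 0.051 without dim probe sets, 0.066 with quantile normalization and 0.084 with cyclic loess. With CR, the count higher in *sus1*Δ cells (4) was 2, 0 and 0, then 1 without dim probe sets and 7 with the replicate number as a block, and the count lower (4) was 2, 0 and 0, and 7 with quantile normalization. The median there (0.03) turned to -0.13 without dim probe sets, -0.11 with quantile normalization, -0.076 without WT culture 3 and -0.081 with cyclic loess. The interaction count (0) was 2 with the culture as a random block, whose consensus correlation was 0.41. The untreated strain difference of *DAL4* turned to -0.22 with quantile normalization. Leaving out each array in turn gave 8 to 13 genes raised by CR in WT and 0 to 1 in *sus1*Δ cells. It gave 7 to 12 higher and 1 to 2 lower in untreated *sus1*Δ cells, with 7 without the second untreated *sus1*Δ array, and 3 to 4 higher and 3 to 5 lower with CR. The medians ranged over 0.24 to 0.32, 0.03 to 0.11, 0.13 to 0.21 and, with CR, -0.076 to 0.053, where the lowest came without the third CR-treated WT array. The calls of *ATG20* and *ATG3* after CR in WT cells were lost in 5 and 4 of 6 such fits, *ATG40* in 3, *ATG7* in 2, and *ATG29* and *ATG33* in 1 each. Between untreated strains *ATG36* was lost in 4, *ATG23* in 3, and *ATG34* and *ATG16* in 1 each, and with CR *ATG20* in 5 and *ATG40* in 4. The omission of WT culture 3 and cyclic loess were chosen after seeing the data. The t-test and the fit of only the groups compared were not run for the interaction. The dim signals of many *ATG* genes and the 3 arrays per group limit what could be detected.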
